A study of Rattus norvegicus with 6 samples.

Results

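Axon guidance ligands and receptors were followed in 6 RNA libraries labelled as primary cultured rat microglia, 3 kept for 24 h with PSNPs, polystyrene nanoplastics, and 3 kept for 24 h with IR-813, a near-infrared dye. The members were taken by symbol from the deposited count table as the semaphorins of classes 3 to 7, plexins, Eph receptors, ephrins, Slits, Robos, netrins and netrin-G genes, together with Dcc, Neo1 and the Unc5 genes. The table held 60 such symbols among 16876 genes. Neo1 was not among them and was not analysed here. Microglia of both groups had been shaken off mixed co-cultures, and the study asked about behaviour and neuronal activity after PSNPs exposure. The labels name no untreated sample, so a rise or fall means a level with PSNPs above or below that with IR-813, and which of these agents moved a gene cannot be told.

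Axon guidance cues are secreted or membrane-bound proteins that steer growing axons and migrating cells by attraction or repulsion. Semaphorins act through plexins, often with a neuropilin as co-receptor; ephrins act through Eph receptor tyrosine kinases, with signals running both ways across the contact; Slits act through Robos; and netrins act through Dcc, which mediates attraction, and Unc5 receptors, which mediate repulsion. In the brain many of these genes are also used by glia and by precursors of oligodendrocytes.

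The libraries held between 19166605 and 22553507 counts and between 13001 and 13255 detected genes. PSNPs replicate 3 stood apart from the other PSNPs libraries on the second principal component, at 35.4 against -22.9 and -24.3, and its log CPM values correlated with theirs across genes at 0.974 or less, where theirs correlated at 0.995. Markers of other cell types were abundant beside those of microglia. The summed level of 8 microglia markers lay between 700.1 and 953 CPM with IR-813 and between 502 and 668 CPM with PSNPs, against sums between 7586 and 10910.4 CPM for 10 astrocyte markers and between 4504 and 8419 CPM for 12 oligodendrocyte-lineage markers over all 6 libraries. In bulk RNA, fewer cells of a type and less RNA per cell cannot be told apart.

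Of the 60 members, 54 passed the count filter. By edgeR's quasi-likelihood test with an adjusted p under 0.05 over all tested genes, 7 of the 54 rose and 15 fell. Calls therefore covered 40.7% of the members, against 41.0% of all 11679 tested genes. Rising calls made up 13.0% of the members and 20.9% of all genes, and falling calls 27.8% of the members and 20.1% of all genes. The median log2 fold change was -0.25 over the members and -0.01 over all tested genes. A change of more than 2-fold was called for 12 members, 2 higher and 10 lower, beside 13.5% of all tested genes, 4.67% higher and 8.81% lower. The 33 tested ligands held 7 that rose and 9 that fell, and the 21 tested receptors held 0 that rose and 6 that fell. At an unadjusted p under 0.05, edgeR also had 0 receptors higher, with 7 lower, and DESeq2 and limma each called 0 higher and 7 lower. All 3 PSNPs libraries lay above all 3 IR-813 libraries for 8 members, beside 30.0% of all tested genes, and below them for 22, beside 31.4%, together 55.6% of the members and 61.4% of all tested genes.

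**Figure D1:**
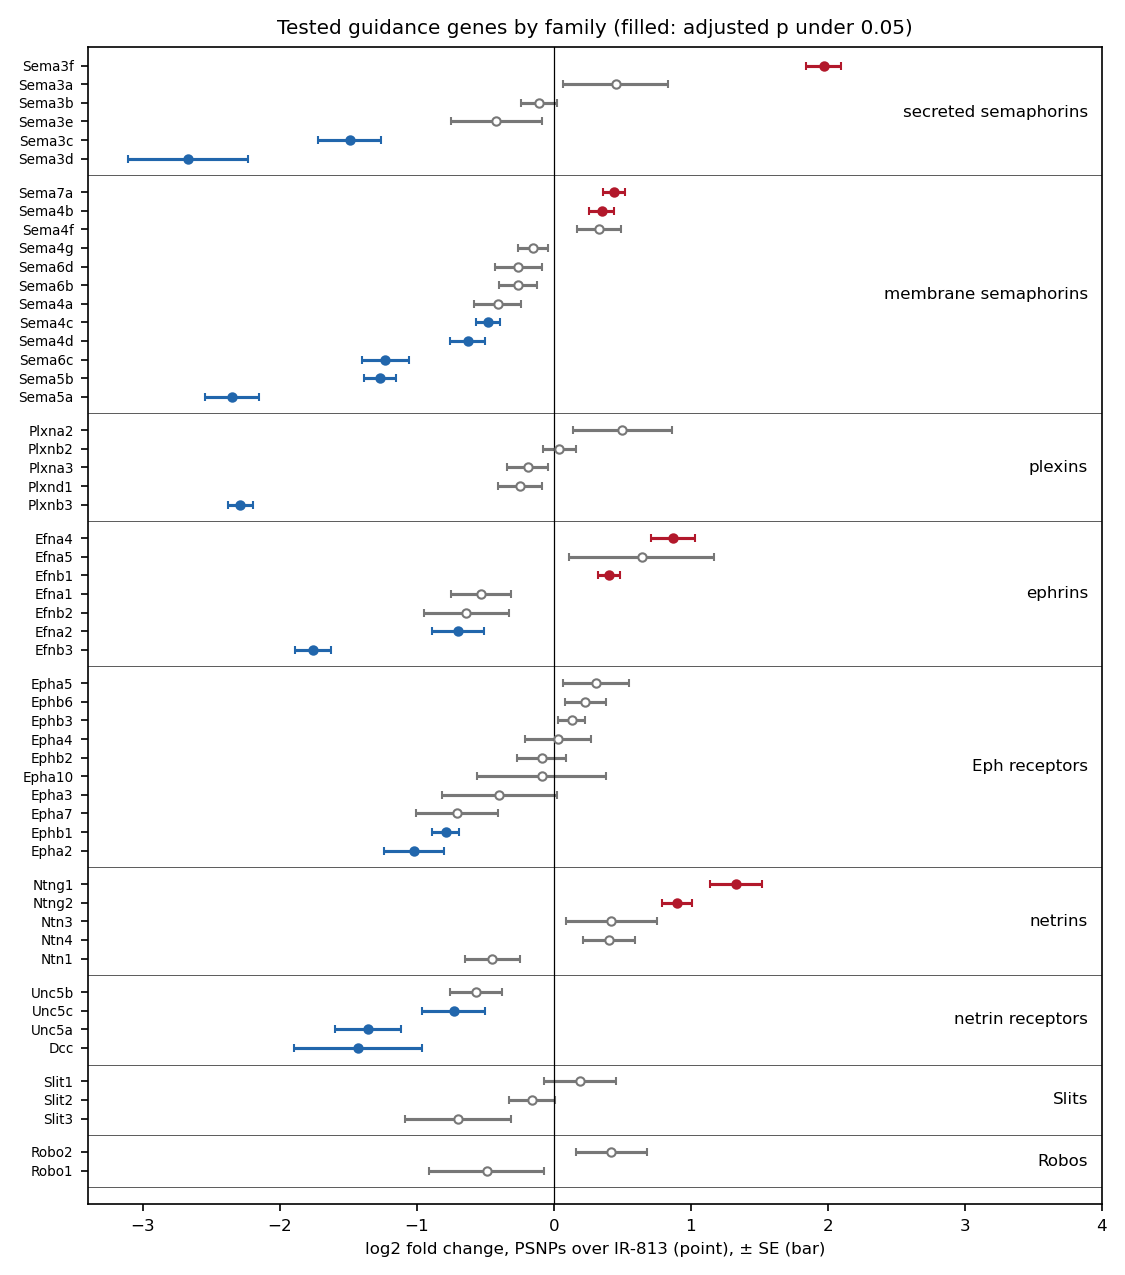
Log2 fold change of PSNPs over IR-813 for each of the 54 tested members, grouped by family. Points are edgeR estimates with all 6 libraries, bars are ± 1 SE, and filled points have an adjusted p under 0.05. Receptors (plexins, Eph receptors, netrin receptors and Robos) have filled points on the lower side only, which does not hold with the length offset or without PSNPs replicate 3, whereas ligands have them on both sides.

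Members were long genes. By a length proxy taken from the ratio of the deposited counts to the deposited log2 values, the median member lay at percentile 83.4 of the tested genes, and 33 of the 54 members were among the 2920 longest tested genes. The median log2 fold change of PSNPs over IR-813 was -0.26 in these 2920 genes, beside -0.25 over the members, and 0.21 in the 2920 shortest genes. A lower median is therefore not particular to guidance genes. In the 2920 longest genes the median log2 ratio of PSNPs replicate 3 to the mean of PSNPs replicates 1 and 2 was -0.39, whereas in the 2920 shortest genes it was 0.32. PSNPs replicate 3 was the lowest of the PSNPs libraries for 35 of the 54 members (64.8%) and for 44.1% of all tested genes. Without that library 16 of 56 tested members rose and 22 fell, a call share of 67.9% beside 59.9% of all tested genes, and all 22 calls of the full set were kept. With an offset for the length trend of each library, 16 of 54 rose and 14 fell, a call share of 55.6% beside 48.1% of all tested genes, 20 of the 22 calls were kept, and the median member stood at -0.02. The absence of rising receptors did not hold under either setting, with 4 rising of 22 receptors without PSNPs replicate 3 and 8 of 21 with the length offset.

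**Figure D2:**
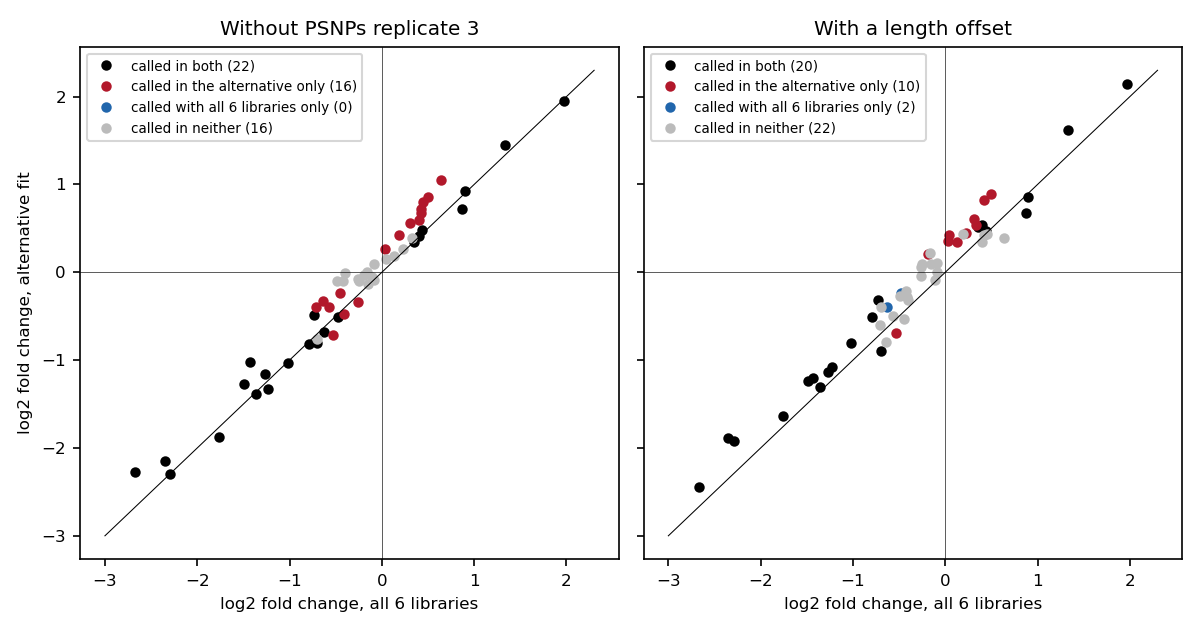
Log2 fold change of each member with all 6 libraries (horizontal axis) against the value without PSNPs replicate 3 (left) or with a length offset (right); the line marks equal values. Colour gives where the adjusted p was under 0.05: 22 members in both fits on the left and 20 on the right.

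Among the secreted class 3 semaphorins, Sema3f rose and Sema3c and Sema3d fell. Sema3f, a repellent that acts through neuropilin-2, stood at 7.88, 9.32 and 7.08 CPM in the IR-813 libraries and at 31.2, 31.1 and 32.9 CPM in the PSNPs libraries. The groups did not overlap, and the rise of 1.97 ± 0.13 on the log2 scale (estimate ± SE, 3.92-fold, adjusted p = 0.000129) was the largest among the members. Sema3d stood at 29.8, 33.4 and 36.9 CPM with IR-813 and at 6.53, 7.32 and 1.77 CPM with PSNPs, where replicate 3 was the lowest. It fell by 2.67 ± 0.44 on the log2 scale, the largest fall of a member, with an edgeR adjusted p of 0.00349. Sema3c, with the highest level per length of the class, stood at 432, 413 and 321 CPM with IR-813 and at 163, 159 and 94.0 CPM with PSNPs. Again every PSNPs library lay below every IR-813 library, and Sema3c fell by 1.49 ± 0.23 (adjusted p = 0.00276).

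Sema3a, a strong repellent that signals through neuropilin-1, was not called (0.45 ± 0.38, adjusted p = 0.378). It stood at 26.9, 25.4 and 18.5 CPM with IR-813 and at 37.8, 44.3 and 14.5 CPM with PSNPs, so that PSNPs replicates 1 and 2 were above all IR-813 libraries and replicate 3 was below them. Without PSNPs replicate 3 it was called higher (0.80, adjusted p = 0.00324). Sema3b and Sema3e, with log2 fold changes of -0.11 and -0.42, were not called. The neuropilin genes Nrp1 (-0.57 ± 0.37) and Nrp2 (-0.49 ± 0.34) were not called, and their groups overlapped.

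Of the 12 membrane-bound semaphorins of classes 4 to 7, 2 rose (16.7%, beside 20.9% of all tested genes) and 5 fell (41.7%, beside 20.1%). Sema5a, a transmembrane semaphorin with thrombospondin repeats, stood at 124, 125 and 127 CPM with IR-813 and at 27.2, 29.3 and 17.1 CPM with PSNPs. The IR-813 libraries lay within a narrow range far above the PSNPs libraries, and Sema5a fell by 2.35 ± 0.20 on the log2 scale (5.11-fold, adjusted p = 0.000268). Its close relative Sema5b fell by 1.27 ± 0.12, from 118, 129 and 127 CPM to 53.6, 57.9 and 43.6 CPM. Sema6c, a class 6 transmembrane semaphorin, fell by 1.23 ± 0.17, from 9.40, 8.57 and 7.40 CPM to 3.68, 3.03 and 4.12 CPM. These 3 genes showed no overlap between groups.

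Smaller calls in this family were Sema4c (-0.48 ± 0.09) and Sema4d (-0.63 ± 0.13), which fell, and Sema4b (0.35 ± 0.09) and Sema7a (0.44 ± 0.08), which rose. Sema4d, also known as an immune semaphorin, stood at 26.9, 32.9 and 35.9 CPM with IR-813 and at 19.9, 19.7 and 22.1 CPM with PSNPs. Sema7a, which is anchored to the membrane by a lipid, stood at 48.2, 50.3 and 49.6 CPM with IR-813 and at 69.3, 67.8 and 63.2 CPM with PSNPs. Neither gene overlapped between groups. With the length offset the edgeR adjusted p was 0.165 for Sema4c and 0.0840 for Sema4d, so both calls were lost. The call of Sema4b was lost with IR-813 replicate 1 (edgeR adjusted p = 0.0834), IR-813 replicate 3 (0.0663) or PSNPs replicate 1 (0.0518) left out. Sema6d, with the highest mean level per length over all libraries in the family, stood at 215, 212 and 206 CPM with IR-813 and at 189, 211 and 129 CPM with PSNPs and was not called (-0.26 ± 0.17). The other uncalled members, Sema4a, Sema4f, Sema4g and Sema6b, lay between -0.41 and 0.33.

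**Figure D3:**
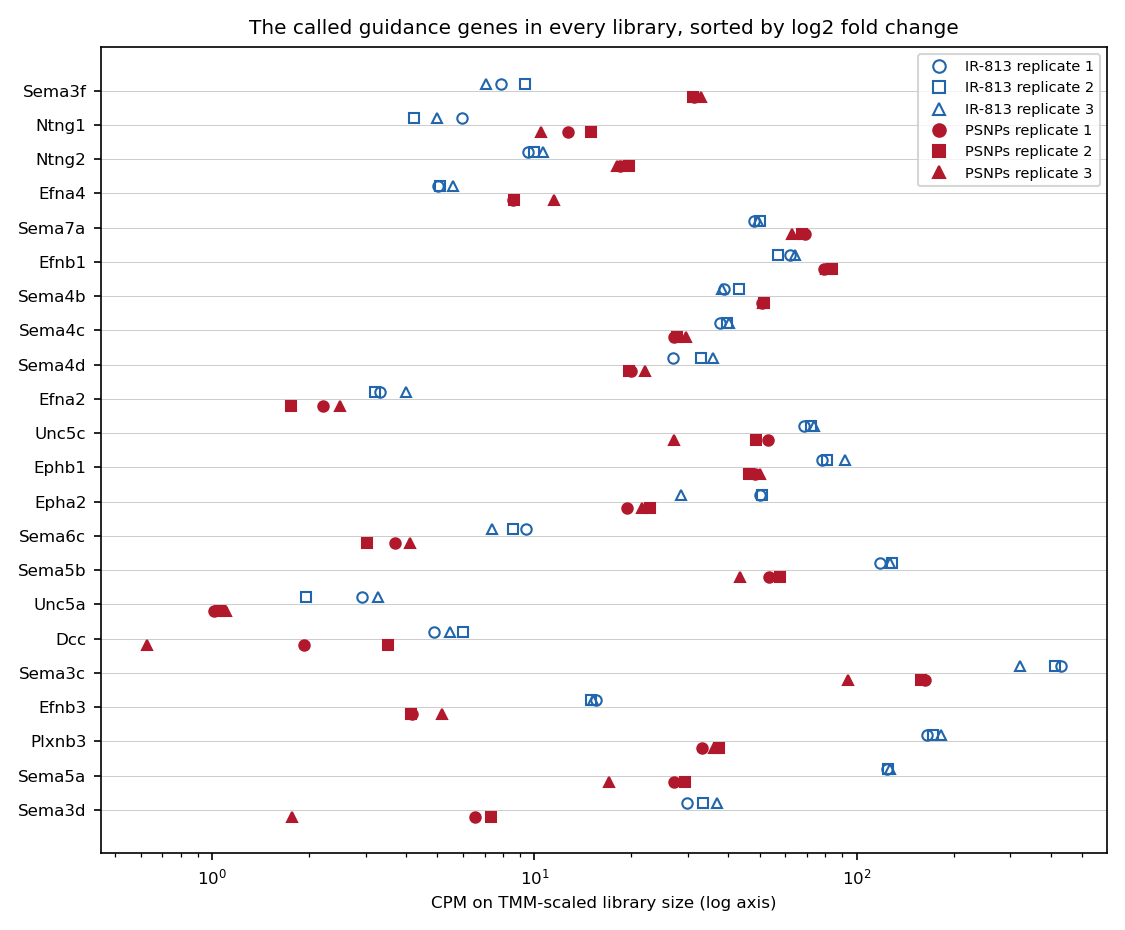
CPM (log axis) of the 22 called members in each of the 6 libraries, sorted by log2 fold change, with open blue symbols for IR-813 and filled red symbols for PSNPs. For every gene shown the groups do not overlap, as for 61.4% of all tested genes. The genes were called in these same libraries, so this is no further support for the calls. PSNPs replicate 3 (triangles) is far below the other PSNPs libraries for Sema3d, Dcc and Unc5c.

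Plexins, the semaphorin receptors, held the member with the smallest p. Plxnb3, a receptor for Sema5a, stood at 165, 173 and 183 CPM with IR-813 and at 33.2, 37.5 and 36.1 CPM with PSNPs. The groups were far apart with a small spread in each, and Plxnb3 fell by 2.29 ± 0.09 on the log2 scale (4.88-fold, adjusted p = 5.24e-05). Plxnb2, a receptor for class 4 semaphorins, had the highest level per length of all members, with 117 deposited abundance units with IR-813 and 121 with PSNPs. It stood at 755, 815 and 846 CPM with IR-813 and at 922, 865 and 704 CPM with PSNPs, and was not called (0.04 ± 0.12, adjusted p = 0.788).

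Plxna2 stood at 155, 153 and 158 CPM with IR-813 and at 280.1, 281 and 97.3 CPM with PSNPs, so that PSNPs replicate 3 lay below and the other 2 PSNPs libraries lay above every IR-813 library. It was not called with all libraries (0.50 ± 0.36), but it was called higher without PSNPs replicate 3 (0.86, adjusted p = 1.00e-05). Plxna3 (-0.19 ± 0.15) and Plxnd1, the receptor for Sema3e (-0.25 ± 0.16), were not called. With the length offset Plxna2, Plxna3 and Plxnb2 were called higher, at 0.89, 0.21 and 0.43, so the count of called plexins went from 1 to 4. Calls over all tested genes then went from 41.0% to 48.1%.

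RNA counts do not measure promoters. To show the sequence upstream of guidance genes with large changes, the 250 bases before the start site are printed for the 3 members with the largest called falls, and for the called riser with the largest increase, among those with a window in the RefSeq promoter table (build GRCr8). This table gave 48 windows for 47 of the 60 members. Sema3d (chr4:23460972-23461221 on the minus strand), Plxnb3 (chrX:156646624-156646873 on the plus strand), Sema3c (chr4:18699628-18699877 on the minus strand) and Ntng1 (chr2:200515032-200515281 on the minus strand) are written 5′ to 3′ in the direction of the gene, with capitals for any match on either strand to the TATA box motif TATAAA, the CCAAT box motif CCAAT, the GC box motif GGGCGG, the E-box motif CAGCTG or the SOX core motif AACAAT.
Sema3d: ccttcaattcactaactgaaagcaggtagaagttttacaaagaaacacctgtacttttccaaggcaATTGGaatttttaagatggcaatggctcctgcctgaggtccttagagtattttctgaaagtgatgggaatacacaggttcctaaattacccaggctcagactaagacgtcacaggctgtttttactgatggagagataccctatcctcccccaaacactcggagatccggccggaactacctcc
Plxnb3: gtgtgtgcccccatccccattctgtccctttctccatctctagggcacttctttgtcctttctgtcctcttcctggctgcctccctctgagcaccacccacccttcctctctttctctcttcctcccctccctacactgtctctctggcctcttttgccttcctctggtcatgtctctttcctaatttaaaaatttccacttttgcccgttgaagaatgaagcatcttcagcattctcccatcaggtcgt
Sema3c: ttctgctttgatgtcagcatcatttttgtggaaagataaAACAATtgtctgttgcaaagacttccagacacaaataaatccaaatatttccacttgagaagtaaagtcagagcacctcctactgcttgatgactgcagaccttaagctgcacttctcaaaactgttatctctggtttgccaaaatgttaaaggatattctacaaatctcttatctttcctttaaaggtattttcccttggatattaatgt
Ntng1: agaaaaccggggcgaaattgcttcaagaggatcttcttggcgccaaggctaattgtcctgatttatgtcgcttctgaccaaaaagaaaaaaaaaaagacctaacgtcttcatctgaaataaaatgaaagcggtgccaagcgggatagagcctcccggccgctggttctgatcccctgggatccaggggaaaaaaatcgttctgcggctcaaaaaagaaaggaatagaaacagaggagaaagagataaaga
The Sema3d window holds CCAAT on the opposite strand and the Sema3c window holds AACAAT, while the other windows hold none of the 5 motifs. TATAAA was found in 0 of the 48 member windows, beside 12.9% of all 33469 windows. GGGCGG was found in 24 of the 48 (50.0%), beside 30.5%, and AACAAT in 2 of the 48 (4.17%), beside 10.3%. CCAAT was in 16 of 48, beside 34.0%, and CAGCTG in 10 of 48, beside 4007 of all 33469 windows.

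Among ephrins, the membrane-bound ligands of Eph receptors, 2 rose and 2 fell of 7 (57.1% called, beside 41.0% of all tested genes). Efnb3, a transmembrane B-class ephrin, stood at 15.5, 15.0 and 15.2 CPM with IR-813 and at 4.18, 4.14 and 5.17 CPM with PSNPs. The groups were tight and did not overlap, and Efnb3 fell by 1.76 ± 0.13 on the log2 scale (3.39-fold, adjusted p = 0.00019). Efnb1, the B-class ephrin with the highest mean level per length in the PSNPs libraries, rose by 0.40 ± 0.08, from 62.2, 57.1 and 64.4 CPM to 79.0, 83.7 and 80.4 CPM. Efna4, which is held in the membrane by a lipid anchor, rose by 0.87 ± 0.16, from 5.01, 5.08 and 5.60 CPM to 8.60, 8.65 and 11.5 CPM. Members of the same class therefore moved in opposite directions.

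Efna2 fell by 0.70 ± 0.19, from 3.31, 3.21 and 3.98 CPM to 2.21, 1.75 and 2.50 CPM. Its edgeR adjusted p of 0.0247 rose above the threshold when IR-813 replicate 1 (0.0652), 2 (0.0624) or 3 (0.0808) or PSNPs replicate 1 (0.0626) or 2 (0.0653) was left out. The call of Efnb1 was lost without IR-813 replicate 2 (0.0596). Efnb2, a ligand of several EphB receptors and Epha4, stood at 28.2, 25.9 and 25.1 CPM with IR-813 and at 21.0, 21.1 and 8.87 CPM with PSNPs, without overlap and without a call (-0.64 ± 0.31, adjusted p = 0.135). Efna1 (-0.53 ± 0.22) and Efna5 (0.64 ± 0.53) were not called. Without IR-813 replicate 2 the count of called ephrins was 2, where calls covered 23.9% of all tested genes. Without PSNPs replicate 3 it was 7, which is all of them, where calls covered 59.9% of all tested genes.

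Of the 10 tested Eph receptors, 2 fell and 0 rose, where 20.1% of all tested genes fell and 20.9% rose. Ephb1, with the highest level per length among them, stood at 78.1, 80.8 and 92.0 CPM with IR-813 and at 48.4, 46.4 and 50.2 CPM with PSNPs. All PSNPs libraries lay below all IR-813 libraries, and Ephb1 fell by 0.79 ± 0.10 (adjusted p = 0.00107). Epha2 stood at 50.0, 50.9 and 28.6 CPM with IR-813 and at 19.4, 22.9 and 21.5 CPM with PSNPs. IR-813 replicate 3 was nearer to the PSNPs libraries than to the other IR-813 libraries, and Epha2 fell by 1.02 ± 0.22 (adjusted p = 0.0111).

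The receptors that were not called ranged from -0.71 (Epha7) to 0.31 (Epha5). Epha5 stood at 36.7, 39.3 and 39.5 CPM with IR-813 and at 56.7, 56.8 and 29.2 CPM with PSNPs, and Epha4, which binds ephrins of both classes, at 27.0, 24.4 and 28.1 CPM and 30.6, 33.4 and 17.3 CPM. In both genes PSNPs replicate 3 was below all IR-813 libraries and PSNPs replicates 1 and 2 were above them. Without PSNPs replicate 3 these receptors were called higher (0.56 and 0.27) and Epha7 lower (-0.40). With the length offset Epha4, Epha5, Ephb3 and Ephb6 were called higher, so 6 receptors were called in place of 2, and 5 without PSNPs replicate 3. Calls over all tested genes covered 48.1% with the length offset and 59.9% without PSNPs replicate 3, in place of 41.0%.

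Of the netrins and their receptors, the netrin-G genes rose, whereas 3 of 4 tested netrin receptors fell and none rose. Falls covered 20.1% and rises 20.9% of all tested genes. Ntng1, a lipid-anchored netrin that acts at synaptic contacts and not through Dcc, stood at 5.95, 4.24 and 5.00 CPM with IR-813 and at 12.7, 15.0 and 10.5 CPM with PSNPs. Every PSNPs library lay above every IR-813 library, and Ntng1 rose by 1.33 ± 0.19 (2.51-fold, adjusted p = 0.00215). Its relative Ntng2 rose by 0.90 ± 0.11, from 9.53, 9.97 and 10.6 CPM to 18.4, 19.6 and 18.0 CPM.

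The secreted netrins were not called. Ntn1, the classical attractant, stood at 31.0, 33.8 and 33.3 CPM with IR-813 and at 27.6, 27.8 and 16.3 CPM with PSNPs (-0.45 ± 0.20), without overlap. Ntn4, a basement membrane netrin with the highest mean level per length over all libraries in the family, stood at 34.5, 32.2 and 33.8 CPM with IR-813 and at 46.7, 54.2 and 31.5 CPM with PSNPs (0.40 ± 0.19), with PSNPs replicate 3 again the lowest. Ntn3 was at 0.42 ± 0.33. Without PSNPs replicate 3, Ntn1 was called lower (-0.24) and Ntn3 and Ntn4 were called higher (0.72 and 0.59).

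Among netrin receptors, Unc5a fell by 1.36 ± 0.24 (adjusted p = 0.00504), from 2.91, 1.96 and 3.28 CPM to 1.01, 1.06 and 1.10 CPM. Unc5c stood at 68.9, 72.3 and 73.6 CPM with IR-813 and at 53.2, 48.8 and 27.1 CPM with PSNPs and fell by 0.73 ± 0.23 (adjusted p = 0.0424). Dcc stood at 4.88, 6.01 and 5.46 CPM with IR-813 and at 1.93, 3.50 and 0.626 CPM with PSNPs and fell by 1.43 ± 0.47 (adjusted p = 0.0464). In these 3 genes the groups did not overlap, and for Dcc and Unc5c PSNPs replicate 3 was the lowest library.

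The calls of Dcc and Unc5c were each lost with 4 of the 6 libraries left out in turn. Dcc had an edgeR adjusted p of 0.102, 0.130 and 0.113 without IR-813 replicates 1, 2 and 3 and of 0.111 without PSNPs replicate 1, and it stayed called without PSNPs replicate 2 (-2.06, 0.0123) or 3 (-1.02, 0.00938). Where the call of Dcc was lost its log2 fold change lay between -1.51 and -1.36. Unc5c had 0.10, 0.112 and 0.113 without IR-813 replicates 1, 2 and 3 and 0.0542 without PSNPs replicate 2, and it stayed called without PSNPs replicate 1 (-0.91, 0.035) or 3 (-0.49, 0.000422). Where the call of Unc5c was lost its log2 fold change lay between -0.83 and -0.71. Unc5b, the receptor with the highest level per length, stood at 79.6, 79.8 and 61.7 CPM with IR-813 and at 50.9, 60.8 and 37.5 CPM with PSNPs. It missed the threshold (-0.57 ± 0.19, adjusted p = 0.0513) and passed it under 7 of 14 alternatives. The count of called netrins and receptors was 5 of 9, 3 without any 1 of the IR-813 libraries, and 9 of 9 without PSNPs replicate 3. Calls over all tested genes covered 41.0% with all libraries and between 23.9% and 30.8% without an IR-813 library. Without PSNPs replicate 3 they covered 59.9%.

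Of the 5 tested Slits and Robos 0 were called by edgeR, beside 41.0% of all tested genes. Of these 5 genes 0 had an unadjusted p under 0.05, and DESeq2 and limma, on the same libraries, also called 0. Slit2, the repellent with the highest level per length among Slits, stood at 28.5, 26.8 and 23.6 CPM with IR-813 and at 26.4, 26.2 and 17.9 CPM with PSNPs (-0.16 ± 0.17). Robo1 stood at 40.9, 39.2 and 36.3 CPM with IR-813 and at 37.9, 34.3 and 10.4 CPM with PSNPs (-0.49 ± 0.42). Robo2 stood at 39.3, 37.4 and 33.8 CPM and at 54.5, 63.1 and 29.8 CPM (0.42 ± 0.26). In each of these 3 genes PSNPs replicate 3 was the lowest of all libraries, and without it Robo2 (0.68) and Slit1 (0.42) were called higher. Robo2 was also called higher with the length offset (0.82, edgeR adjusted p = 0.000634), and the other 4 then were not called. Calls over all tested genes covered 59.9% without PSNPs replicate 3 and 48.1% with the length offset.

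The 6 members under the count filter were Epha1, Ntn5, Robo3, Robo4, Sema3g and Unc5d. Robo4, an endothelial Robo, was at a count of 0 in all 6 libraries. The others had means at or below 0.551 CPM in both groups. Robo3, the Robo of commissural neurons, was called lower with no count filter (-2.09, edgeR adjusted p = 0.0382) and also with IR-813 replicate 3 or PSNPs replicate 1 left out (-2.39 and -3.16), and Sema3g was called lower (-1.11, 0.0395) when 10 counts in 3 libraries were required.

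Of 79 co-receptors, other cues and effectors written down for guidance signalling, 74 were in the table and all 74 were tested. Rises were called for 6 (8.11%, beside 20.9% of all tested genes) and falls for 27 (36.5%, beside 20.1%). Together these made up 44.6%, beside 41.0% of all tested genes. The median log2 fold change of the list was -0.35. Its genes were also long, with the median gene at percentile 74.4 of the length proxy. The adhesion co-receptor gene L1cam stood at 4.52, 4.66 and 4.07 CPM with IR-813 and at 0.598, 0.743 and 0.470 CPM with PSNPs and fell by 2.86 ± 0.21. Dscam, an adhesion molecule that can also serve as a netrin receptor, stood at 37.0, 38.6 and 42.0 CPM and at 5.56, 4.62 and 2.50 CPM and fell by 3.21 ± 0.26. Cntn4, a contactin, fell by 2.34 ± 0.23. In these genes the groups did not overlap.

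Lrrc4c, the membrane ligand of Ntng1, fell by 1.63 ± 0.14, from 15.4, 17.0 and 17.3 CPM to 4.64, 6.05 and 5.43 CPM, while Ntng1 itself rose and Lrrc4, the ligand of Ntng2, was not called. Rnd1, a small GTPase that binds plexins, fell by 1.54 ± 0.12. Chn2, a Rac-inactivating chimaerin, fell by 1.30 ± 0.14, and Dpysl4, of the collapsin response mediator proteins, fell by 0.72 ± 0.08. Among the 6 genes that rose were Rras, a GTPase acted on by plexins (0.89), Dock1, a Rac activator (0.79), Rgma, a neogenin ligand (0.65), and Rhoa (0.26) (these 4 were chosen with their values known). Without PSNPs replicate 3, 19 rose and 35 fell, a call share of 73.0% beside 59.9% of all tested genes. The length offset gave 10 that rose and 25 that fell, or 47.3% beside 48.1%.

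**Figure D4:**
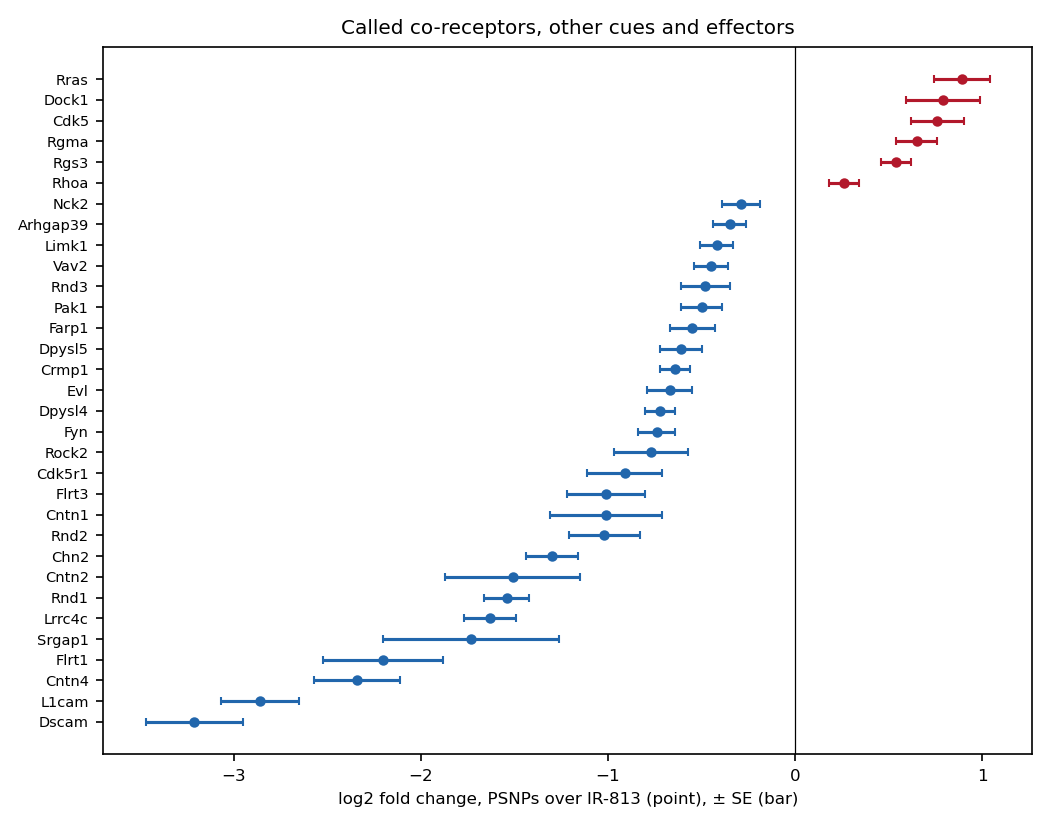
Log2 fold change of PSNPs over IR-813 for 32 of the 33 called genes among the co-receptors, other cues and effectors; points are edgeR estimates and bars ± 1 SE. The 26 genes shown on the lower side reach -3.21 (Dscam) and the 6 on the upper side reach 0.89 (Rras).

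Marker genes of neurons, of the oligodendrocyte lineage and of microglia had more falls than rises, whereas those of astrocytes had more rises. Over all tested genes 20.9% rose and 20.1% fell. Of 10 tested neuron markers 7 fell and 0 rose, and the sum of the 12 listed markers lay between 386 and 399.7 CPM with IR-813 and between 165 and 198 CPM with PSNPs. Of 12 oligodendrocyte-lineage markers 11 fell and 1 rose, with sums between 7259 and 8419 CPM with IR-813 and between 4504 and 5215 CPM with PSNPs. Of 8 microglia markers 5 fell and 0 rose, and of 10 astrocyte markers 5 rose and 1 fell. Of 10 vascular and fibroblast markers 5 were tested, of which Flt1 rose and Pecam1 and Pdgfrb fell, and the 10 markers summed to between 74.8 and 106 CPM with IR-813 and between 60.7 and 79.9 CPM with PSNPs. Of these 10, only Col1a2 was at a count of 0 in all 6 libraries. The part of these cell types in the fall of guidance genes was not tested.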

How the data were processed

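The data were 6 RNA libraries, 3 per treatment, from cells labelled as primary cultured rat microglia; sample titles gave the groups and replicate numbers. The columns named con and NPS in the deposited table belong to the samples titled IR-813 and PSNPs. The labels do not state that replicates were separate cultures or animals, so p-values reflect only the spread between samples and this may be technical. Polyadenylated RNA was selected, per the labels' protocols, with a kit not stated to keep strand. The authors deposited whole-number read counts per gene symbol. They also deposited 1 file of log2 values per library, with no scaling stated in the labels. The submitters' processing notes name bcl2fastq and mRatBN7.2. Aligner, counter and annotation were not given in the sources used here, so reads shared with overlapping or antisense genes could not be assigned with certainty.

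After removal of a pseudocount of 1, the unlogged log2 values were proportional to the counts, within 0.05 log2 units after a gene and a library factor, for at least 99.0% of values of at least 10 counts in every library. The unlogged value was used as the level per length, in deposited abundance units, and the gene factor as a length proxy, which was available for all 11679 tested genes.

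Counts were filtered with filterByExpr, scaled with TMM factors and fitted on the whole table with edgeR 4.0.16 (quasi-likelihood test, treatment as the only term) in R 4.3.3, with Benjamini-Hochberg adjustment over all tested genes and calls at an adjusted p under 0.05. The fit was tested on simulated counts with the same dispersion for all genes. These had no outlying library and no length trend, so the fit was not tested against those features. CPM used TMM-scaled library sizes. The SE was the log2 fold change over the square root of F, taken without sign. An exact 2-sided test of 3 against 3 cannot go below 0.1, so no such test was used. The 14 alternatives were a replicate block, RLE or no scaling factors, DESeq2 1.42.0, 2 other count filters, limma 3.58.1 on the deposited log2 values, a loess length offset (span 0.5) and each library left out.

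The members, the other lists and the rule for named genes were chosen with earlier results of these data known. Values per library were to be given, in each family, for up to 3 called members with the smallest p and 1 CPM or more on average in a group and for the member with the highest mean level per length, and for the pathway list the 8 genes with the smallest p were to be named, of which 1 is not reported here. Further members are given by library where they bind such a gene or show how PSNPs replicate 3 differs, chosen after their values were seen.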

Additional observations from a re-analysis of the deposited data

How the results depend on the processing

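Of the 22 called members, 15 kept their call and direction under all 14 alternatives: Efna4, Efnb3, Epha2, Ephb1, Ntng1, Ntng2, Plxnb3, Sema3c, Sema3d, Sema3f, Sema5a, Sema5b, Sema6c, Sema7a and Unc5a. The other 7 (Dcc, Efna2, Efnb1, Sema4b, Sema4c, Sema4d and Unc5c) kept their direction and lost the call under at least 1. With each library left out in turn, between 6 and 16 members rose, between 12 and 22 fell, and the median member lay between -0.33 and -0.10. Called members then made up between 33.3% and 67.9%, while calls over all tested genes covered between 23.9% and 59.9%. For the pathway list between 4 and 19 rose and between 18 and 35 fell. The highest counts came without PSNPs replicate 3. With the length offset 16 members and 10 pathway genes rose, and the median member was at -0.02. The replicate block gave 7 members higher and 16 lower. Correlations of deviations from the group means were -0.00585, 0.0145 and 0.121 for same-numbered libraries, and between -0.174 and 0.184 for the other pairs. With 3 libraries per group this cannot show whether same-numbered samples shared a culture or batch. In all genes the block gave 2035 higher and 2124 lower genes in place of 2439 and 2351. With no scaling factors beyond library size, 1943 genes were called higher and 2852 lower, or 40.5% of calls higher in place of 50.9%, with 7 members higher and 16 lower. On the deposited log2 scale, whose pseudocount shrinks the change of low genes, L1cam was at -0.74 and Cntn4 at -0.74.

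Members that changed sign had not been called. With the length offset, Epha10 was at 0.11, Plxna3 at 0.21, Plxnd1 at 0.09, Sema4g at 0.10, Sema6d at 0.06 and Slit2 at 0.22, and only Plxna3 of these passed the threshold. Epha4 was at -0.01 with the replicate block, -0.04 with library size only and -0.00 on the deposited log2 scale, and Plxnb2 at -0.03 with library size only. With a library left out, Epha4 lay between -0.14 and 0.27, Epha10 between -0.45 and 0.42, Plxnb2 between -0.04 and 0.15, Slit1 between -0.09 and 0.42, Ephb2 between -0.23 and 0.09 and Slit2 between -0.25 and 0.00. The cause of these changes was not tested. The 6 members under the count filter had too few counts to be tested in the main fit.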
